A study of Mus musculus with 4 samples.

Results

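The genes described here are those of the synaptic vesicle, its SNARE fusion machinery and the Rab GTPases of membrane traffic, measured in CA1, a field of the mouse hippocampus, with 4 arrays hybridised to total RNA. Members were taken by gene symbol alone, under a rule with no measured value in it: Syp, Syn1 to Syn3, Nsf, Napa, Napb and Napg, every symbol that starts with Syt, Stx, Vamp, Cplx or Sv2, and every symbol in which Snap or Rab is followed directly by a digit. The rule found 106 probe sets of 82 genes among 12422 probe sets of 8251 named genes, the array's controls left out. A probe set is the group of oligonucleotides that reads 1 transcript, and a gene can have several. Syn1, Syn3, Napg, the Sv2 genes and Snap29 were not analysed here, because the annotation used holds no single-gene probe set with those names.

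All 4 samples were handled controls, young male C57BL/6J mice that a person had handled and that had no further treatment. Their RNA was taken 1, 2, 4 or 6 hours after shocked mice of the same experiment had had their last shock, so that each hour has a single sample. Samples of shocked mice were not used here. It is not stated in the labels whether a sample is 1 mouse or a pool. With 1 array an hour, time, animal, dissection and array cannot be told apart in any difference between samples. In such bulk tissue fewer cells of a type and less RNA per cell cannot be told apart either.

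Transmitter release rests on a small set of proteins that work in order. A vesicle SNARE, synaptobrevin (Vamp), zips together with the plasma membrane SNAREs syntaxin (Stx) and SNAP-25 and so fuses vesicle and membrane. Synaptotagmins (Syt) sense calcium, complexins (Cplx) clamp and prime the SNARE complex, and after fusion the ATPase NSF with its adaptors, the alpha, beta and gamma SNAPs (Napa, Napb, Napg), takes the complex apart for reuse. Rab GTPases mark membranes by identity: Rab3 sits on synaptic vesicles, Rab5 on early and Rab7 on late endosomes, and Rab11 on recycling endosomes, and each recruits its own tethers and motors. Excitatory CA1 neurons carry much of this machinery, but most SNAREs and Rabs serve traffic in every cell.

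Values below are the deposited signals on a linear scale, in the order 1, 2, 4 and 6 hours. Differences are on the log2 scale after quantile normalization with a floor at a signal of 35.1. Tests took in the probe sets whose mean log2 value reached the 40th percentile of the array, which 81 of the 106 member probe sets (66 genes) did, among 7453 tested in all. Signals of different probe sets are not comparable with each other, because each binds its target with its own strength.

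The state of the samples bears on every comparison with the 1-hour sample. The ratio of the 3' to the 5' control signal of Gapdh, a measure of how complete the transcripts were, stood at 4.52 at 1 hour, against 1.18, 1.37 and 1.20 at 2, 4 and 6 hours. For the other such control, beta-actin, the ratio was 2.34 at 1 hour and 2.00, 1.80 and 1.76 after it, a much smaller gap. General neuronal markers other than the members lay lower there in 6 of 8 tested probe sets (median -0.34), with summed signals of 30758 at 1 hour and 29953 to 32417 in the others. CA1 pyramidal markers lay higher in 3 of 5 (median 0.08, summed signals 5639 against 4867 to 5749) and interneuron markers higher in 4 of 6 (median 0.09, 22498 against 18478 to 21620). Choroid plexus markers lay higher in 3 of 3, with summed signals of 4743 against 1828 to 2447, led by the carrier protein gene Ttr. Oligodendrocyte markers lay lower in 7 of 9, with 23197 against 25832 to 31734, and microglial markers lower in 5 of 6, with 3952 against 4737 to 5539. Of the 8 choroid plexus probe sets 2 were under the floor in all samples. Of the markers of CA1 pyramidal cells, Wfs1 was present in every sample with 2292, 2274, 2797 and 1964, while Camk2a, a kinase abundant in CA1, was dim on both of its probe sets (5.1 to 94.9). The part of transcript state, cell makeup or any 1 of these measures in the results below was not tested.

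Most of the machinery differed little between the samples, and a minority lay far apart. Over the 4 samples, 45 of 81 tested members had a log2 range (highest minus lowest) under 0.5, while 17 had a range of 1 or more, that is 2-fold. These 17 are 21.0% of the tested members, against 17.9% of all tested probe sets, so the share is near the background. Ranges under 0.25 made up 14.8% of the tested members and 11.8% of all tested probe sets. Those from 0.25 to 0.5 made up 40.7% and 30.7%. The median SD over the samples was 0.22 for the members and 0.25 for all tested probe sets. Without the 1-hour sample 7 of 81 members were 2-fold apart (8.64%), against 9.04% of all.

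**Figure D1:**
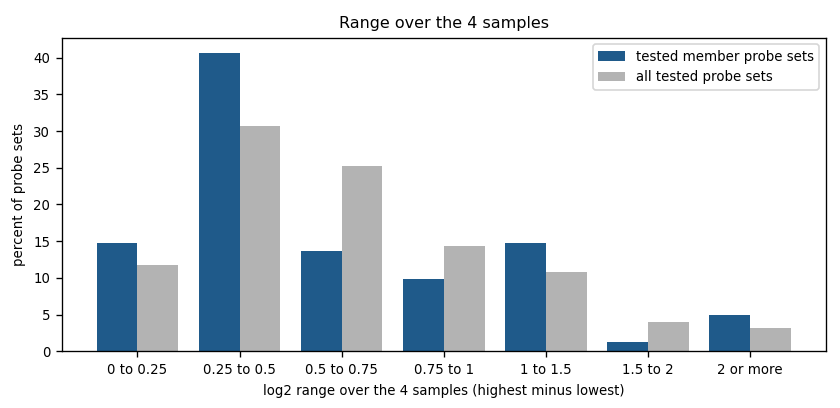
Percent of tested probe sets (vertical axis) in each class of log2 range over the 4 samples (horizontal axis), for the 81 tested members (blue) and all 7453 tested probe sets (grey). Members are more frequent than the array between 0.25 and 0.5 (40.7% against 30.7%) and less frequent between 0.5 and 0.75 (13.6% against 25.3%).

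The vesicle membrane and its tethers were read by 2 tested probe sets. Syp, which encodes synaptophysin, the abundant membrane protein of synaptic vesicles, had signals of 618, 1186, 717 and 1271. Its 1-hour and 4-hour samples were low and its 2-hour and 6-hour samples high, with no value between. The 1-hour sample lay 0.70 below the mean of the other 3 (SE 0.32), which did not pass (limma, adjusted p = 0.34). Syn2, which encodes synapsin II, a phosphoprotein that ties vesicles to the reserve pool, had 1585, 2386, 1789 and 1987. Its order of samples began in the same way, with 1 and 4 hours lowest, but over a smaller range of 0.63.

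The synaptotagmins held some of the widest differences. Syt1, the fast calcium sensor of release, had 1092, 2216, 1592 and 2452, lowest at 1 hour and next lowest at 4 hours. Its 1-hour difference of -0.89 (SE 0.25) missed the threshold (limma, adjusted p = 0.13). Syt11, a synaptotagmin that does not bind calcium, had 526, 2287, 1497 and 2762, so that the 1-hour sample was about 4-fold under the others (3.96-fold, log2 difference -1.98, SE 0.31, limma adjusted p = 0.022). Syt5, a calcium-binding member found on dense-core vesicles, had 1134, 2007, 2384 and 2027, with the last 3 close together (SD 0.12) and the 1-hour sample 0.89 lower (SE 0.16, limma adjusted p = 0.038). Syt17 had 703, 817, 1038 and 1032, a range of 0.54. In contrast Syt2, Syt3 and Syt4 were steady on the brighter or single tested probe set, with ranges of 0.25, 0.34 and 0.44. Syt4, an activity-regulated synaptotagmin, had 391, 307, 331 and 297. Of the 8 tested synaptotagmin probe sets 4 lay lower and 4 higher at 1 hour (median -0.11), against 0.05 over all tested probe sets.

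The remaining synaptotagmins were dim. Syt6, Syt7, Syt8, Syt9, Syt10 and both probe sets of Sytl4, a synaptotagmin-like effector of Rab27, did not reach the filter, and nor did the second probe set of Syt2. The highest value among them was 140, for Syt7 at 2 hours, beside 31.7, 49.6 and 38.4 at 1, 4 and 6 hours. Syt7 is a slow calcium sensor of delayed release, and 1 of its 4 values was under the floor.

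Of the neuronal SNAREs, the plasma membrane pair had smaller ranges than the vesicle partner Vamp2, a contrast that was not tested. The 2 tested Vamp2 probe sets ranged by 0.64 and 1.35, against a median of 0.56 over all tested probe sets. Snap25, the neuronal plasma membrane SNARE, had 19258, 18318, 17210 and 17847, a log2 range of 0.24 with the 1-hour sample 0.00 from the mean of the others. Stx1a, the neuronal syntaxin, had 964, 1163, 1299 and 1047, a range of 0.40. Vamp2, the main synaptobrevin of the forebrain, is read by 2 tested probe sets. The brighter had 9419, 11883, 11050 and 13268 and the dimmer 245, 613, 339 and 649, and in both the samples stood in the same order, from 1 hour as lowest through 4 and 2 hours to 6 hours. The 1-hour differences were -0.49 (SE 0.13) and -1.02 (SE 0.37), and neither passed (limma, adjusted p = 0.11 and 0.23). Vamp1, the synaptobrevin of fast-spiking and motor neurons, had 64.3, 328, 168 and 444 on its tested probe set, 4.53-fold lower at 1 hour (-2.18, SE 0.53, limma adjusted p = 0.090). Its other probe set, below the filter, had 21.6, 23.8, 39.3 and 70.4.

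SNAREs of general membrane traffic were mostly level. Stx18, a syntaxin of the endoplasmic reticulum, had 445, 465, 449 and 490, a range of 0.11. Stx5a, which serves the Golgi, Stx7 and Stx12, which serve endosomes, and Vamp4, of the trans-Golgi network, had ranges of 0.25, 0.34, 0.32 and, for the 2 Vamp4 probe sets, 0.30 and 0.49. Snap47, a widely expressed relative of SNAP-25, had 5118, 5997, 5304 and 6206. Stx2, Stx8 and Stx6 stood apart from this. So did the dimmer probe set of Vamp8, an endosomal SNARE described below, with a range of 2.43 against 0.38 on the brighter one. Stx2, a plasma membrane syntaxin also called epimorphin, had 201, 308, 509 and 554, higher at each later time. Stx8, of late endosomes, had 359, 140, 188 and 292, with the 1-hour sample highest and the 2-hour sample 1.01 below the other 3 (SD of those 3, 0.48). Stx6, of the trans-Golgi network, had 315, 641, 377 and 447, just under 2-fold apart (range 0.996), with the 2-hour sample highest. Stx4a, Vamp3 and Vamp7, which serve exocytosis outside the synapse, had ranges of 0.50, 0.83 and 0.49. A second Vamp7 probe set, below the filter, ranged by 1.08. Over the 20 tested SNARE probe sets 9 lay lower and 11 higher at 1 hour, with a median of 0.05, the same as over the array. In the 4-hour sample 16 of 20 lay lower (median -0.18), against 3666 of 7453 over the array (median 0.01). This count was not tested, and some of the 20 read the same gene.

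Several SNAREs were too dim to test. Snap23, the non-neuronal relative of Snap25, had 97.2, 113, 81.7 and 22.9, the last under the floor. Stx3, the syntaxin of ribbon synapses and of postsynaptic exocytosis, had 3 probe sets that went different ways: 30.3, 97, 52.2 and 43.3, then 165, 30.6, 25.1 and 27.6, then 104, 44.6, 79.4 and 27.3. The highest sample was 2 hours on the first and 1 hour on the others. Vamp5, a muscle-associated member, lay between 44.6 and 50.2 on its probe set.

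Among the regulators of the SNARE complex, Nsf and Cplx1 passed as lower in the 1-hour sample. Nsf had 5050, 9289, 7836 and 8854, 1.84-fold lower in the 1-hour sample (-0.88, SE 0.15, limma adjusted p = 0.030). Its adaptors had their highest value in that sample on their brighter probe sets. Napa, alpha-SNAP, had 4022, 3254, 3149 and 3163, and the brighter probe set of Napb, the brain-specific beta-SNAP, had 2561, 2381, 1887 and 2062. The 1-hour differences were 0.29 for both (SE 0.13 for Napa and 0.18 for Napb), and neither passed (limma, adjusted p = 0.32 and 0.47). The dimmer Napb probe set lay lower at 1 hour instead, which did not pass either (log2 difference -0.78, limma adjusted p = 0.57). Averaged over both probe sets Napb lay at -0.24 (limma, adjusted p = 0.79). Cplx1, complexin I, had 1141, 2474, 3004 and 2286, 2.21-fold lower at 1 hour (-1.14, SE 0.18, limma adjusted p = 0.022), and the other 3 values lay within 0.37 of each other. Cplx2, complexin II and the main form of excitatory forebrain neurons, had 1680, 2333, 2027 and 2180, also lowest at 1 hour but by 0.38 (SD of the others 0.13). Stxbp2 and Stxbp3, syntaxin-binding proteins of non-neuronal exocytosis, had ranges of 0.47 to 0.51. Snap91, which encodes AP180, a clathrin adaptor that sets vesicle size, had 1298, 1168, 957 and 992, highest at 1 hour.

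The Rab GTPases had the smallest median SD of the roles. Of 34 tested probe sets, 23 had a range under 0.5 and 3 a range of 1 or more, and that median was 0.16, against 0.25 for all tested probe sets. Over the array 11.8% of tested probe sets ranged by under 0.25, 30.7% by 0.25 to 0.5 and 17.9% by 1 or more. Rab2a, which serves traffic between the endoplasmic reticulum and the Golgi, had 1901, 1749, 1785 and 1856 on its tested probe set, a range of 0.10 and the narrowest of all tested members. Rab6a, of the Golgi, had ranges of 0.12 on each of its 2 probe sets, with signals of 7936 to 8629 on the brighter. Rab5a and Rab5c, of early endosomes, ranged by 0.20 and 0.25, and Rab11a and Rab11b, of recycling endosomes, by 0.23 (brighter probe set) and 0.26. Rab10, Rab12, Rab14, Rab18, Rab21 and Rab1a each had a tested probe set with a range of 0.15 to 0.34. Other tested probe sets were wider, with ranges of 0.57 for Rab10, 0.73 for Rab14 and 0.63 for Rab11a. A second Rab1a probe set, below the filter, ranged by 0.88.

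The Rab3 genes, the Rabs of synaptic vesicles, were less level. Rab3a, the main Rab of neuronal vesicles, had 157, 449, 436 and 191, with 1 and 6 hours low and 2 and 4 hours high, and its linear trend over the hours was -0.01 on the log2 scale. Its second probe set was under the floor in all 4 samples. Rab3b had 330, 492, 593 and 574, with the 1-hour sample 0.70 below the others (SD of the others 0.16, limma adjusted p = 0.20). Rab4b, of early and recycling endosomes, had 707, 1211, 1473 and 1396, and its 1-hour difference of -0.91 (SE 0.19) just missed the threshold (limma, adjusted p = 0.055). Its relative Rab4a had 745, 623, 1032 and 992. Rab33a, a Golgi Rab enriched in brain, had 569, 324, 590 and 524, and here the 2-hour sample was the low one (-0.83, SD of the others 0.11, unadjusted p = 0.015 and adjusted p = 1 in limma). Rab31 had 426, 743, 558 and 705 on its brighter probe set. Rab5b had 31.8, 167, 67.4 and 163, and did not reach the filter, with its 1-hour value under the floor. Rab17, Rab20, Rab23, Rab35, Rab3d and Rab8b were also dim, between 16.2 and 137.

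Rab7, the late endosomal Rab, gave the widest range of any member on 1 of its probe sets and a nearly flat line on the other. The dimmer probe set, with an _s suffix, had 163, 753, 890 and 1176, 5.56-fold lower in the 1-hour sample (-2.48, SE 0.28, limma adjusted p = 0.0089). The brighter one had 1205, 1196, 1413 and 1230, with a 1-hour difference of -0.06 (SE 0.18, limma adjusted p = 0.90). With both averaged the 1-hour difference was -1.27 (limma, adjusted p = 0.032 among 4951 genes). The part of the transcript that each reads was not used here.

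Rab-named genes that are not Rab GTPases made up 7 tested probe sets. Rab3ip, an exchange factor for Rab8, was level, with ranges of 0.15 and 0.49. Rab11fip5, an effector of Rab11 in recycling, had 716, 727, 560 and 758. Rab5if had 2163, 1495, 2008 and 1595. Rab3il1, an exchange factor, had 233, 183, 120 and 206, with a range of 0.94. The transcripts Rab10os and Rab26os, named for lying opposite the genes Rab10 and Rab26, had 120, 174, 119 and 212 and 118, 120, 88.1 and 184, and both were highest at 6 hours.

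**Figure D2:**
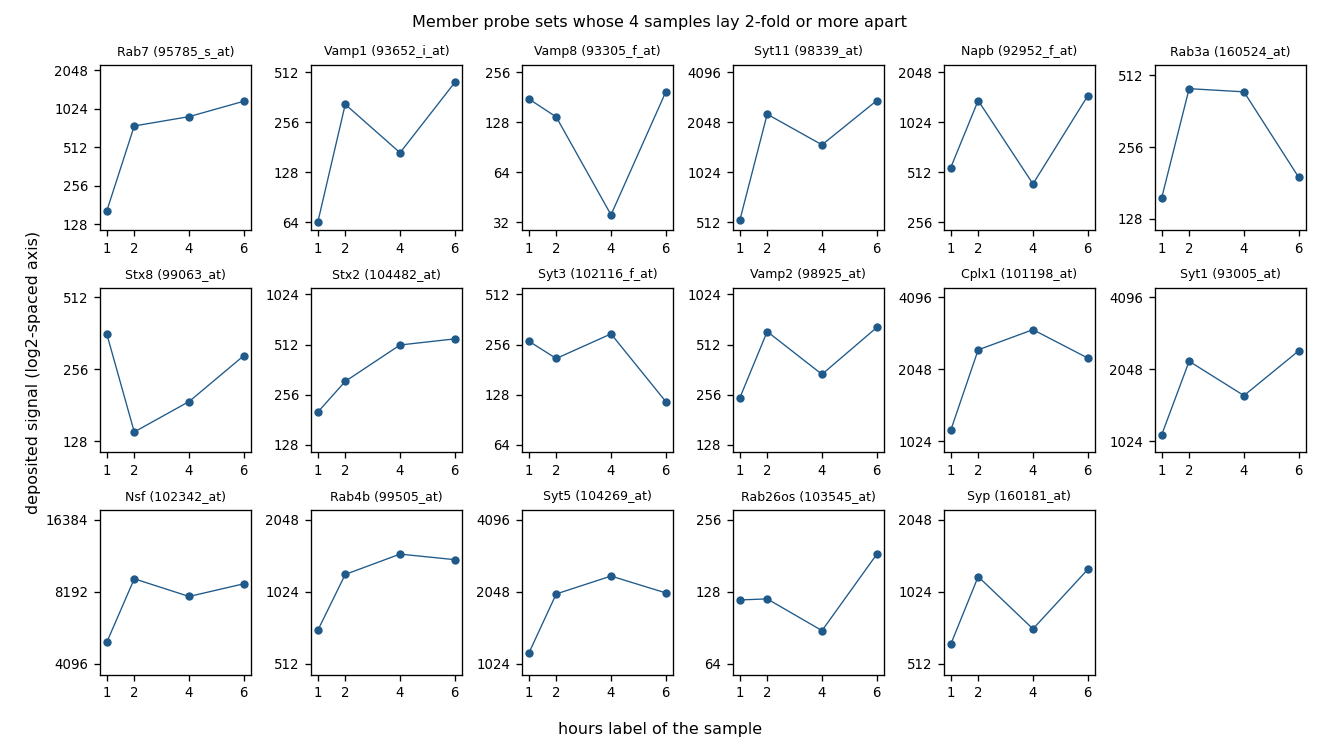
Deposited signal (vertical axis, log2-spaced) by the hour label of the sample (horizontal axis) for the 17 tested member probe sets with a range of 2-fold or more, each point 1 array, with no error bar because each hour has 1 sample. The 1-hour sample is the lowest in 12 of the 17 panels and the 6-hour sample the highest in 10. Over all tested probe sets with such a range, these shares are 39.8% and 26.3%.

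Where the extremes fell was not even across samples. The 1-hour sample was the lowest of the 4 in 32 of 81 tested members (39.5%, against 29.2% of all tested probe sets) and the highest in 20 (24.7%, against 35.1%). The 6-hour sample was the lowest in 9 (11.1%, against 24.0%). Of the 17 wide members, 7 had the 2- and 6-hour samples as their top values (41.2%, against 21.3% of the 1331 probe sets of the array with such a range). This count was chosen after the values were seen and has no test. Syp, Syt1, Syt11, Vamp1, the dimmer Vamp2 probe set, 1 Napb probe set and Nsf make up these 7.

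Each sample was then set against the other 3. In the 1-hour sample 7 members lay 2-fold or more lower (8.64%, against 4.56% of all tested probe sets) and 0 lay 2-fold or more higher (background 1.78%). The 7 were Rab7, Vamp1, Syt11, Cplx1, Stx2, Rab3a and Vamp2, each on 1 probe set. In the 2-hour sample 1 member, Stx8, was 2-fold lower (background 1.72%) and 0 were higher (1.27%). In the 4-hour sample 2 were lower, Vamp8 and Napb on probe sets marked for shared sequence (1.93%), and 0 higher (1.07%). In the 6-hour sample 5 were higher, Rab7, Napb, Vamp1, Vamp8 and Syt11 (6.17%, against 1.49%), and 1 was lower, Syt3 (1.61%). These 5 had SDs of 0.88 to 1.34 among the other 3 samples. Of the 71 tested members whose probe set has no design suffix (described below), only 1, Syt11, was 2-fold higher at 6 hours.

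The limma fit of the 1-hour sample against the other 3 passed for 5 members, all lower: Rab7, Syt11, Cplx1, Nsf and Syt5. That is 6.17% of the tested members, against 2.11% of all tested probe sets lower by the same rule, and 0 members were higher (background 0.242%). A total of 14 members had an unadjusted p under 0.05, all lower, against 15.8% of the array in either direction. Counted in either direction, that share of the 81 tested members is near the one of the array. The array's share at this unadjusted p in the lower direction alone was not counted. The lone sample has no spread of its own and is taken to vary as the others, so the fit describes this array and not the hour. The median 1-hour difference over the 81 members was -0.05, with 44 lower and 37 higher, against 0.05 over the array. The 14 tested probe sets of the release set (Syp, Syn2, Syt1, Vamp2, Stx1a, Snap25, Cplx1, Cplx2, Nsf, Napa, Napb and Rab3a) had a median of -0.60, with 11 lower.

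The number of members called lower at 1 hour depended on the processing and on single samples. Fits with a sample left out also have fewer residual degrees of freedom than the main fit. Raising the floor to the 40th percentile left 0 calls, as did dropping the filter on low values or the intensity trend of limma's prior. With 1 value a gene 3 remained (Cplx1, Rab7 and Syt11). Without the 2-hour sample 1 remained, Rab7, and without the 6-hour sample 3 did, Cplx1, Rab7 and Syt11. Without the 4-hour sample more were called than in the main fit. Among them were Syt1 (-1.07), both Vamp2 probe sets (-1.31 and -0.59), Vamp1 (-2.55) and Napb (-1.34), beside the 5 above. In each of these fits the 5 kept a negative difference, although the filter and the prior alter only the p-values and could not change it.

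**Figure D3:**
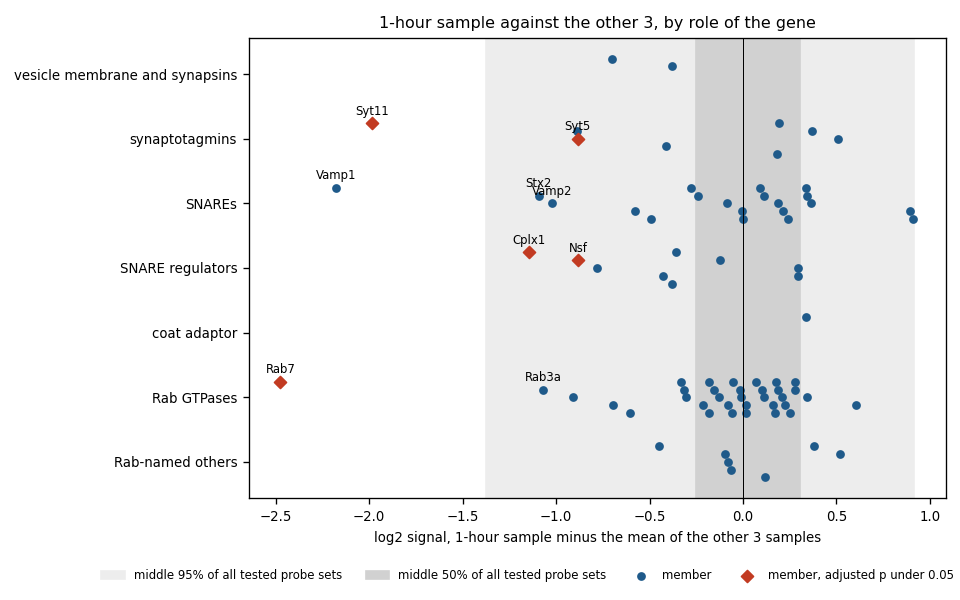
Log2 signal of the 1-hour sample minus the mean of the other 3 (horizontal axis) for each of the 81 tested member probe sets, by role of the gene (vertical axis). Grey bands hold the middle 50% and 95% of all 7453 tested probe sets. Red diamonds mark the 5 members with an adjusted p under 0.05, all to the left, at differences of -0.88 to -2.48.

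The 2-, 4- and 6-hour samples and the trend gave no call. In limma fits of each against the other 3, 0 members and 0% of all tested probe sets passed, and 2, 1 and 1 members had an unadjusted p under 0.05, against 2.64%, 2.76% and 2.27% of the array. A linear trend over the hours passed for 0 members and 0% of the array in limma, with 5 of 81 members at an unadjusted p under 0.05 (6.17%, against 6.24% of the array, which is the background). All 5 slopes were positive: Stx2 (1.42 from 1 to 6 hours, SE 0.35), Rab7 (2.32, SE 0.67), Syt11 (1.69, SE 0.67), Rab4b (0.83, SE 0.33) and Vamp1 (1.97, SE 0.83). Each had an adjusted p of 0.74. Without the 2-hour sample 1 member passed, Syt11 (2.39, limma adjusted p = 0.033).

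Genes read by several probe sets show how far a value depends on the probe set. Of 22 such genes 14 had at least 2 tested probe sets, and the lowest sample was the same on all of them in 5 (Napb, Stxbp2, Vamp2, Vamp4 and Vamp8) and the highest in 3 (Rab31, Rab3ip and Vamp2). Such agreement was not counted over the array. For Stxbp2, Vamp4 and Rab3ip it rests on narrow ranges, of at most 0.50, 0.49 and 0.49. Napb had 546, 1381, 436 and 1475 on its dimmer probe set, with 1 and 4 hours low, but a level line on the brighter one. Vamp8, an endosomal SNARE, had 177, 138, 35.5 and 195 on its dimmer probe set, low at 4 hours only, and 835, 693, 647 and 680 on the brighter one. Syt3 had 268, 211, 297 and 116 on its dimmer probe set, low at 6 hours, and 933, 753, 813 and 938 on the brighter one. Design suffixes such as _f, _s, _i and _r mark probe sets that can bind related transcripts or that fell short of the design rules. Of the 10 tested members with a suffix 5 were 2-fold apart between samples (50%), and of the 71 without 12 were (16.9%). Over the whole array the shares were 22.1% and 16.9%.

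**Figure D4:**
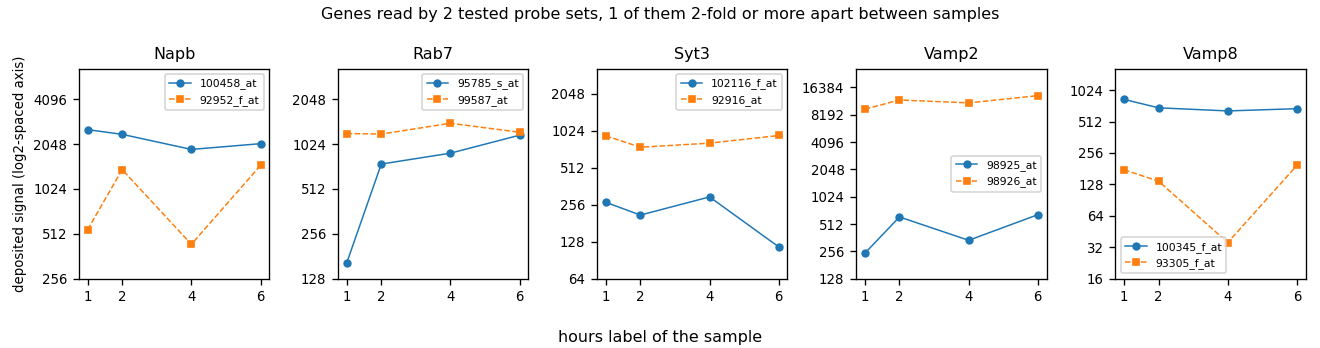
Deposited signal (vertical axis, log2-spaced) by the hour label of the sample (horizontal axis) for 5 genes with 2 tested probe sets, each line 1 probe set and each point 1 array. For Vamp2 both lines put the samples in the same order, while for Rab7, Napb, Syt3 and Vamp8 1 line ranges over 2-fold or more and the other by 0.25 to 0.47 on the log2 scale.

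Other presynaptic genes outside the members, a list of 66 active zone, endocytic, exocyst and Rab-handling genes, had 37 on the array with 41 tested probe sets. At 1 hour 2 of these 41 passed as lower (background 2.11%) and 0 as higher (background 0.242%), and the median difference was -0.18, with 24 lower and 17 higher. Bin1, an endocytic membrane-bending protein, had 652, 2290, 2559 and 2547 on 1 probe set (-1.89, limma adjusted p = 0.0062) and 4211, 4114, 5226 and 4625 on the other (-0.19, limma adjusted p = 0.58). Dnajc5, the cysteine string protein that chaperones Snap25 on vesicles, had 164, 561, 570 and 639 (-1.81, limma adjusted p = 0.011). Gosr1, a Golgi SNARE, had 226, 58.2, 79.5 and 365, and Clta, a clathrin light chain, had 137, 215, 27.5 and 129 on its dimmer probe set, the 4-hour value under the floor. Of the 41, 6 were 2-fold apart between samples, against 17.9% of all tested probe sets.

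The start regions of 3 of the genes called lower at 1 hour (Cplx1, Nsf and Rab7) are shown, since these are the members that passed together in that sample. Sequences are the 250 bases before the RefSeq start site in build GRCm38.p6, on the strand of the gene and written 5' to 3', and 71 of the 82 member genes matched the table by gene identifier (Syt5 was not among them). Capitals mark matches on either strand. The Sp1 box was searched as GGGCGG and the cyclic AMP response element as TGACGTCA, which reads the same on both strands. The CCAAT box was searched by those letters and the TATA box as TATAAA. The site of Egr factors was searched as GCGGGGGCG, which can share letters with a following GGGCGG match. Of the RE1 element, bound by REST, which silences neuronal genes outside neurons, the left part was searched as TTCAGCACC. Rab7 has 2 RefSeq starts. The windows of its inner start and of Syt11 lie within the annotated span of the gene, where they may be transcribed, and are not shown.
Cplx1, chr5:108550028-108550277, minus strand: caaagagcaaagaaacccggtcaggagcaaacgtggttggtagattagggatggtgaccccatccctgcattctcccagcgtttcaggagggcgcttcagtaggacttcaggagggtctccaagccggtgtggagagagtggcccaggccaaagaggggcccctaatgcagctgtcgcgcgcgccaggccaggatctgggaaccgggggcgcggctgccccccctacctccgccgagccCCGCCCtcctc
Nsf, chr11:103954057-103954306, minus strand: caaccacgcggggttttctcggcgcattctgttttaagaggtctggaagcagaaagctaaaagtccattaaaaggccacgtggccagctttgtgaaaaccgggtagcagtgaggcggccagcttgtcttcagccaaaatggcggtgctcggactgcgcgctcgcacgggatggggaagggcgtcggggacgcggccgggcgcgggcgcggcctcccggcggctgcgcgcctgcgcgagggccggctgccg
Rab7, outer start, chr6:88045271-88045520, minus strand: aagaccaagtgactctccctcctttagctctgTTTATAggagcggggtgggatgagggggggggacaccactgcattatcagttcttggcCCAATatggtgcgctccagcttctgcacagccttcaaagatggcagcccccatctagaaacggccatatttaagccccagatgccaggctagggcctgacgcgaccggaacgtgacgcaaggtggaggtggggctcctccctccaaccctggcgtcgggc

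These windows share few of the searched letters. Syt11 held 2 Sp1 boxes, Cplx1 held 1, Nsf held none of the motifs, and the outer Rab7 start held a CCAAT box and a TATA box, while the window of the inner start held 2 Sp1 boxes. Across the 90 windows of member genes the Sp1 box was present in 62.2%, against 32.7% of all 32851 windows of the table, beside a median GC content of 61.2% against 52.4%. The TATA box was present in 5.56% of member windows against 12.4%, and the CCAAT box in 37.8% against 33.8%. The cyclic AMP element was present in 3.33% against 1.55%, the Egr site in 3.33% against 2.57% and the RE1 part in 0% against 0.301%. A match is a description of letters and not a site, and several windows can belong to 1 gene.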

How the data were processed

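The deposited table gives, per probe set and array, an intensity on a linear scale. The deposited columns share a common level, although the step that set it is not given in the sources used here: all 4 had a mean of 500.3 once the outer 2% on either side was trimmed. Of the probe sets, 66 controls were left out. Gene names came from the array's annotation table (10833 probe sets with 1 symbol, 396 with several, 1193 with none, the last 2 kinds not named), and every member's gene identifier matched the RefSeq table of GRCm38.p6.

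Columns were quantile normalized, set to a floor at the 20th percentile and log2 transformed. Probe sets with a mean at or above the 40th percentile were tested with limma 3.58.1 in R 4.3.3 (lmFit, eBayes with intensity trend), 1 sample against the other 3 and a linear trend over hours, each with 2 residual degrees of freedom, two-sided, adjusted by Benjamini and Hochberg over all tested probe sets. P-values measure the spread between these samples, which may be technical, and the number of arrays limits the precision. The fits were tested on simulated data. Alternatives covered normalization, floor, filter, prior, coding of time, 1 value a gene and each sample left out. Fits with a sample left out had fewer residual degrees of freedom. Leaving out probe sets with a design suffix was added after seeing the data. The rule for members reads symbols only, but the members and lists were chosen with earlier results of these data known. Any member could be named, with values in every sample for the release set, tested members 2-fold apart and called members. Of the other presynaptic genes the 4 tested with the widest range were named. Plots used Python 3.11.15 with matplotlib 3.10.9.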

Additional observations from a re-analysis of the deposited data

Results flagged for a closer look

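Among the 81 tested members, 3 had 1 sample whose gap to its nearest neighbour took up more of the range of the 4 samples than Dixon's 95% critical value allows, which chance gives in about 1 of 20 groups. Rab5a, of early endosomes, was set apart by its 2-hour sample (gap over range 0.886, log2 range 0.20). Rab11fip5, the Rab11 effector, was set apart by a low 4-hour sample (0.888, range 0.40). The level Rab7 probe set was set apart by a high 4-hour sample (0.847, range 0.25). The share of members was 3.70%, against 6.75% of all tested probe sets, and none of these 3 had a range of 1 log2 unit. The wide Rab7 probe set, Syt11, Cplx1, Nsf and Syt5 were not among them.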

How the results depend on the processing

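Results are given first for the count of members called lower in the 1-hour sample, 5 in the report. It came to 0 after raising the floor to the 40th percentile, 0 with no filter on low values, 0 with no intensity trend in the prior and 3 after averaging probe sets per gene, and it ran from 1 to 10 with 1 sample left out. The cause of these changes was not tested. With no filter on low values 26 members were 2-fold apart instead of 17, 2 were called higher at 1 hour (Syt9 and Stx3, both with values at the floor), 2 were 2-fold higher there, and 3 and 1 were called at 2 and 6 hours. With 1 value a gene 4 were 2-fold lower at 1 hour instead of 7. With 1 sample left out the members 2-fold apart ran from 7 (without the 1-hour sample) to 15, those 2-fold higher at 1 hour from 0 to 1, and those with a trend from 0 to 1. Of 99 values of these counts and of the median difference under other settings, 82 stayed within 1.5 times the count or within 1 SD (0.078) of the median, which was 0.01 without the 2-hour sample against -0.05. The 5 called members kept a negative difference in all 49 fits made, and no called member reversed. In part of these fits the sign could not change. The filter, the prior and the removal of suffixed probe sets leave a member's difference as it was, and every fit used the same 1-hour array. Of values of single named members 7 gained and 23 lost the threshold. The sign turned in 4, none of them called in either fit: Napb's brighter probe set from 0.29 to -0.24 once averaged with the dimmer one, while with 1 sample left out Rab26os ran from -0.28 to 0.22 (0.22 without the 6-hour sample) and Snap25 from -0.059 (without the 4-hour sample) to 0.071, with -0.019 without the 6-hour sample. No paired analysis was possible because the samples form 1 group. Depth is not defined for arrays. Of the 106 members, 25 had a mean log2 value under the 40th percentile of the array and were not tested.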
